A study of Rattus norvegicus with 7 samples.

Results

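Adrenal glands of rats exposed for 3 weeks to chronic shock (CS) or to chronic variable stress (CVS) were compared directly, as 2 CS against 2 CVS RNA-sequencing libraries of the 7 libraries in the series. The 3 control libraries served only as a reference level and did not enter the test. Every library was made from adrenal RNA pooled over several male Sprague-Dawley rats, so a library is a pool and the spread between libraries is a spread between pools. The groups shared strain, sex, tissue and age, with stress from postnatal day 28 and tissue taken on day 50 to 51. CS rats lived alone on the metal grid of a shock apparatus and received foot shocks of 0 to 3 mA lasting 1 to 5 s at random times. CVS rats lived in cages of 2 or 3 and went through a changing series of physical, psychological and social stressors, which also held sessions of foot shock, periods alone, loss of food or water and altered lighting. Control rats were kept in social groups and only weighed and handled. Shock, single housing, the grid floor and a room separate from that of the other groups came together in CS. They cannot be told apart in these libraries. Genes were kept when they had at least 10 counts in all 4 stressed libraries, which left 14115 of the 32754 genes listed. Gene names were known for 275 of these, all from the study's own lists of genes that differed between a stress group and controls.

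The adrenal gland holds a steroid-producing cortex, which stores cholesterol esters and fat in lipid droplets, and a medulla of chromaffin cells, which release catecholamines and peptides from granules. Both respond to stress, the cortex through pituitary ACTH and the medulla through its nerve supply. Shortage of amino acids or unfolded protein in the endoplasmic reticulum raises a set of genes for amino acid uptake, tRNA charging and protein folding, partly through the transcription factor ATF4, and the clock genes cycle daily in the cortex and are reset by feeding, light and glucocorticoids.

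Promoter windows are printed for 5 genes of those programs whose CS and CVS libraries did not overlap and whose windows held a searched motif. The windows came from RefSeq's GRCr8 table and hold 250 bases before and 50 bases after the start of the gene, whereas the counts were made on Rnor_6.0. Of the 275 named genes, 198 had a window. The letters searched, on both strands, were TGATGNAA, a core of the amino acid response element that ATF4 binds, CACGTG, the E-box read by the clock activators among others, and TTATGNAA, a D-box of the clock output factors. Of all 33469 windows in the table, 3.98% held TGATGNAA, 6.42% held CACGTG and 3.66% held TTATGNAA. TGACGTCA and TGACGTGG, which stood in 1.83% and 0.595% of all windows, were searched too and were not found in any gene printed here. The windows lie at chr14:98761513-98761812 for *Slc1a4*, chr19:66872363-66872662 for *Slc7a5*, chr9:99496944-99497243 for *Per2* and chr10:84229405-84229704 for *Nr1d1*, all on the minus strand, and at chr3:28541841-28542140 on the plus strand for *Man1b1*. Each is written 5′ to 3′ along the gene's strand, capitals mark each match, and no 2 matches overlapped. *Slc1a4* and *Slc7a5* encode amino acid transporters and *Man1b1* a mannosidase of the endoplasmic reticulum, and all 3 had higher levels in CS. *Per2* and *Nr1d1* encode repressors of the clock, the first lower and the second higher in CS. That of *Slc1a4* holds TGATGNAA on the opposite strand and CACGTG, and that of *Man1b1* holds TGATGNAA at 2 places. Those printed for *Slc7a5* and *Nr1d1* hold CACGTG, and that of *Per2* holds TTATGNAA. *Nr1d1* had another window, at chr10:84231763-84232062, which held none of the letters searched and is not printed.
Slc1a4: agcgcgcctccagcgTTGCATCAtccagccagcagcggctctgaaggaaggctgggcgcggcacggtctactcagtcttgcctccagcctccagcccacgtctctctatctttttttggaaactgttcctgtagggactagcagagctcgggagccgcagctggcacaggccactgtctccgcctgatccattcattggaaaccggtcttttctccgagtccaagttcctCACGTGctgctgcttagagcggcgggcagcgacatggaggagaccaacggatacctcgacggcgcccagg
Slc7a5: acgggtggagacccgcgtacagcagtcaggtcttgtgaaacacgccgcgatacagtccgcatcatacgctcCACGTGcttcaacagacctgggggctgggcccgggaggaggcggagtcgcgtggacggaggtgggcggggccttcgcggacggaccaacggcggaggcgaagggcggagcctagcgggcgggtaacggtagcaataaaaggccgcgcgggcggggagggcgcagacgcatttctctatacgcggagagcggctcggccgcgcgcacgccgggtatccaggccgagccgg
Man1b1: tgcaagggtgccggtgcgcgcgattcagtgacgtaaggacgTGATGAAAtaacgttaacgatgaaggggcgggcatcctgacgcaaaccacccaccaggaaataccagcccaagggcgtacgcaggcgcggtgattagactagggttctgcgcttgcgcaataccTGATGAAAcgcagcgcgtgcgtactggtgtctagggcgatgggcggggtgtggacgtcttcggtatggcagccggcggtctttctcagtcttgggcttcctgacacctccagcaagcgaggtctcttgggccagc
Per2: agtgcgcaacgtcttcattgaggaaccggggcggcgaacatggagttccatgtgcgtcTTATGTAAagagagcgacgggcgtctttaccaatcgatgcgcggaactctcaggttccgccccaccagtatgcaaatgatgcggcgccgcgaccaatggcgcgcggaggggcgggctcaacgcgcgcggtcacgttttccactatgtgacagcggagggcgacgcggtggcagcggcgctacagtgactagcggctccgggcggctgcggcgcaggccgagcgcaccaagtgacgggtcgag
Nr1d1: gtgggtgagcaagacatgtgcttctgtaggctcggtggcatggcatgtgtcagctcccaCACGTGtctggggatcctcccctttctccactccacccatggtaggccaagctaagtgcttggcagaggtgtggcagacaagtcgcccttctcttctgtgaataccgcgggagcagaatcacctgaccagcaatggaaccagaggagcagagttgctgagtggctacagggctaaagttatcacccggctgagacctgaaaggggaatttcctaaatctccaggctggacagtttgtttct

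Among the 7 named genes of the amino acid list, all with a window, TGATGNAA stood only in that of *Slc1a4* and CACGTG only in those of *Slc1a4* and *Slc7a5*. Of the 68 named genes with a window that were higher in CS at an unadjusted p under 0.05, 2 held TGATGNAA, 13 held CACGTG and 3 held TTATGNAA. Of the 37 with a window that were lower, 0, 2 and 3 did. Among all 198 named genes with a window, 7, 21 and 6 did. Here a gene counted when any of its windows held the letters, unlike the shares per window given above. These are matches of letters in one window per listed start, not binding sites.

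CVS 1 held 31149255 counts and CVS 2 held 20095746, the fewest of the 7 libraries. CS 1 held 31057275 counts and CS 2 held 26686099. Controls had between 23673320 and 32242123 counts. Levels are given as normalized CPM, which are counts scaled to the size of the library with edgeR's TMM factors over all 7 libraries. The gland was present in every library by its own products. *Cyp11b2*, the aldosterone synthase of the outer cortex, stood at 2592 and 2457 CPM in CVS and 2399 and 2518 CPM in CS, and the medullary granule protein gene *Chgb* at 1194 and 1049 and 1564 and 1499 CPM. In these bulk samples fewer cells of a type and less RNA per cell cannot be told apart.

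No gene differed between CS and CVS at an adjusted p under 0.1, the study's own threshold for this contrast, by edgeR's quasi-likelihood test (0 of 14115, 0.00%), with p-values adjusted by Benjamini-Hochberg over all genes. The smallest adjusted p of that edgeR test was 0.348, shared by *Eprs*, *Ldah*, *Cbarp*, *Pde10a*, *Lmbr1* and *LOC500035*. DESeq2's Wald test, the study's tool, called 48 genes at the same threshold (0.340%), 39 higher and 9 lower in CS. All 48 were also under an unadjusted p of 0.05 in edgeR, and the 2 groups did not overlap in any of them. Without CS library 1, edgeR called 72 genes, of which 24 were among DESeq2's 48, and it called 0 without any 1 of the other 3 libraries. It called 391 genes without a filter on low counts, and 304 when all 7 libraries were fitted with the number that opens each library's code in the labels as a term, against 0 in that fit without the term. Of DESeq2's 48 genes, 48 and 41 were among these. At an unadjusted p under 0.05 edgeR counted 1031 genes (7.30%), 586 higher in CS (4.15%) and 445 lower (3.15%). This count was 472 without CS library 2 and 599 without CVS library 2, and was 1565 without CS library 1. It describes a ranking and not a set of called genes. The median log2 difference over all genes tested was 0.0030, and CS and CVS libraries did not overlap in 5647 genes (40.0%).

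Most genes at an unadjusted p under 0.05 in edgeR's test differed more between the libraries numbered 2 than between those numbered 1. Library codes in the labels begin with the same number for CS 1 and CVS 1 and with different numbers for CS 2 and CVS 2. The number is 6 for Control 1, CVS 1 and CS 1, 8 for Control 2 and CVS 2, and 10 for Control 3 and CS 2. What it stands for is not given, and each library was set against all 3 controls. Of the 586 genes that ranked higher in CS, 457 (78.0%) had the larger gap in the second pair, where the median log2 difference was 0.52 against 0.35 in the first. Of the 445 that ranked lower, 313 (70.3%) did, with medians of -0.41 and -0.33. The same share was not counted over all genes tested. A wider gap between CS 2 and CVS 2 across genes in general therefore cannot be told apart from these shares. In a principal component analysis of the 4 libraries, the first component held 46.3% of the variance and had its extremes at CVS 1 and CS 2, and the second held 36.8% and set CVS 2 apart from the other 3. CS and CVS lay on opposite sides of 0 on none of the 3 components.

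**Figure D1:**
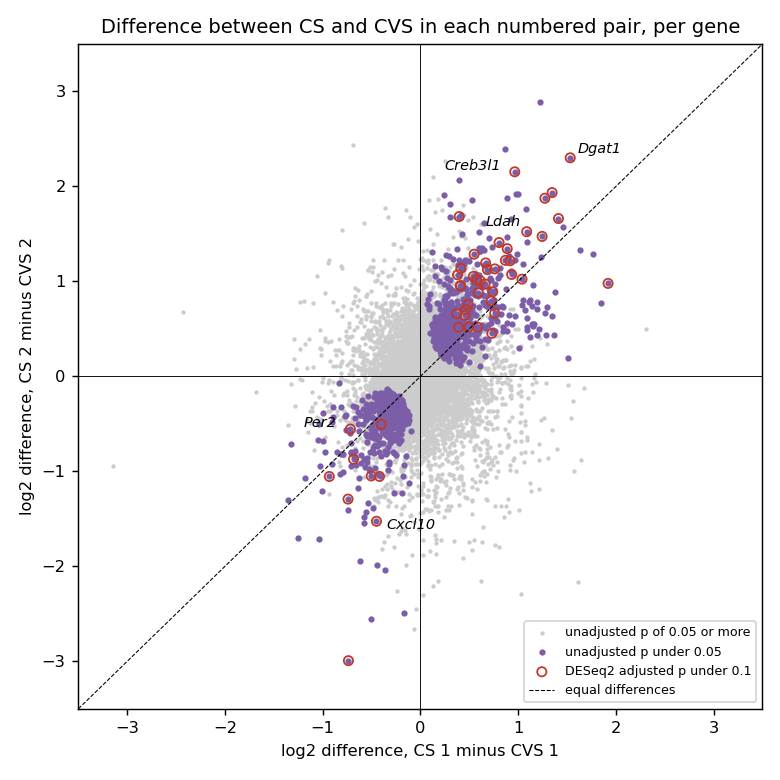
Each point is 1 gene, with the log2 difference CS 1 minus CVS 1 on the x axis and CS 2 minus CVS 2 on the y axis. Purple points had an unadjusted p under 0.05 in edgeR's quasi-likelihood test and red circles an adjusted p under 0.1 in DESeq2, the dashed line marks equal differences, and 1 of the 14115 genes lies outside the plotted range of ±3.5. Most purple points on the right lie above the dashed line, as 457 of 586 had the larger difference in the second pair. That share was not counted for the other points.

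The study chose 5 genes to tell CS from CVS, and all 5 were higher in both CS libraries than in any CVS or control library. They were chosen by the study on these same libraries, with quantitative PCR also used in the choice, so their direction here is not independent evidence. The study also measured them by quantitative PCR in individual rats, including groups housed alone or on the grid without shock. Those measures were not used here. *Dgat1* (ENSRNOG00000028711), the enzyme of the last step of triglyceride synthesis, stood at 45.1 and 52.9 CPM in the CVS libraries and 130.5 and 261 CPM in the CS libraries, against 38.2, 55.01 and 51.4 CPM in controls. CS library 2 stood far above CS library 1, and CVS lay within the control range. The log2 difference was 2.00 ± 0.31 (SE, 2 against 2), with an adjusted p (Benjamini-Hochberg) of 0.553 in edgeR's quasi-likelihood fit and of 6.06e-52 to 0.621 across the alternative fits. *Ldah* (ENSRNOG00000021475), a hydrolase that sits on lipid droplets, stood at 58.2 and 60.1 CPM in CVS, 124 and 173 CPM in CS and 46.6, 61.99 and 63.7 CPM in controls. Its log2 difference was 1.32 ± 0.16. *Eprs* (ENSRNOG00000002393), which charges the tRNAs of glutamate and proline, stood at 255 and 237 CPM in CVS, 466 and 554 CPM in CS and 241, 241 and 284 CPM in controls. Both CS libraries of *Eprs* were well clear of the other 5, and the log2 difference of 1.05 ± 0.12 had the smallest unadjusted p of all genes tested, 6.44e-05 in edgeR's quasi-likelihood fit across all genes.

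*Cbarp* (ENSRNOG00000024349), a regulator of voltage-gated calcium channels, stood at 12.7 and 14.6 CPM in CVS, 30.1 and 40.4 CPM in CS and 13.3, 17.5 and 15.8 CPM in controls, a log2 difference of 1.37 ± 0.17. *Plat* (ENSRNOG00000019018), tissue plasminogen activator, stood at 19.9 and 21.5, 33.7 and 47.02 and 20.2, 22.7 and 23.4 CPM in the same groups, a log2 difference of 0.96 ± 0.17. In each of the 5 genes CS library 2 was the highest of all 7 libraries and CS library 1 the next. With 1 of the 4 libraries left out in turn, the log2 difference ran from 1.41 to 2.41 for *Dgat1*, 1.06 to 1.54 for *Ldah*, 0.92 to 1.17 for *Eprs*, 1.14 to 1.57 for *Cbarp* and 0.70 to 1.19 for *Plat*. DESeq2 called all 5 at an adjusted p under 0.1.

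**Figure D2:**
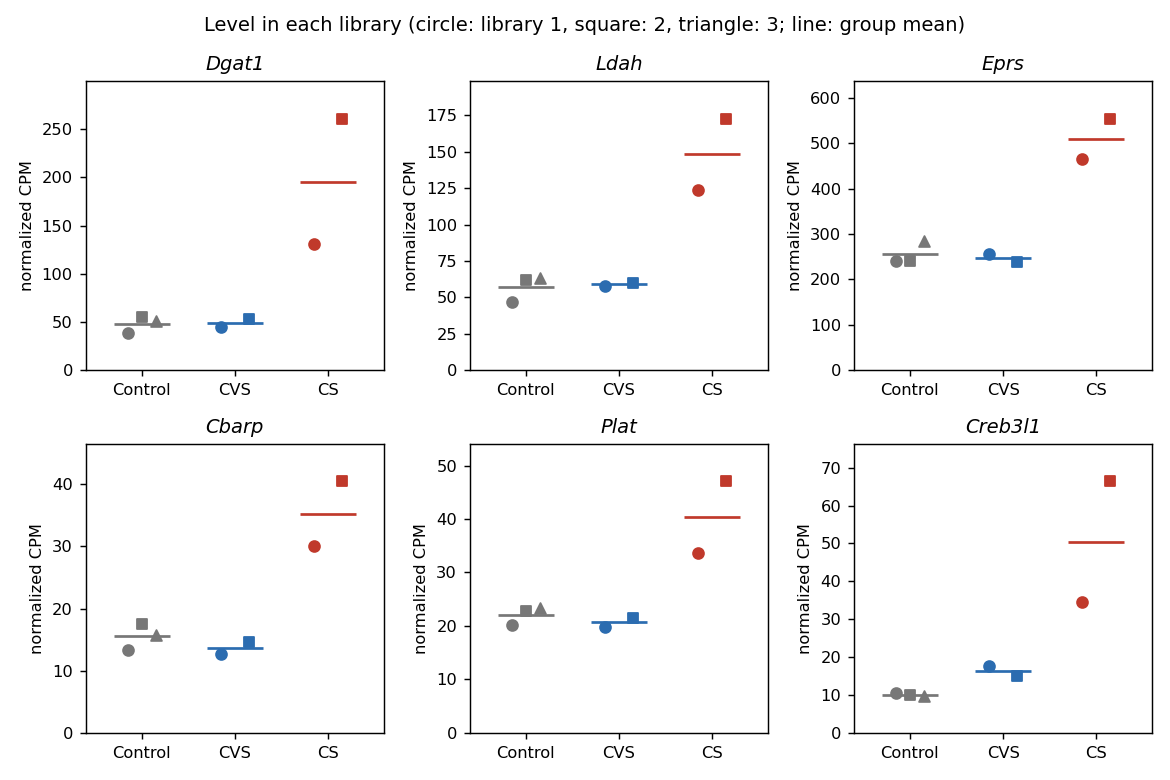
Normalized CPM (y axis, from 0) of the 5 genes the study chose and of Creb3l1 in each control, CVS and CS library (x axis). Points are libraries, with circles for library 1, squares for 2 and triangles for 3, and lines are group means. In all 6 panels both CS libraries lie above the other 5, with CS 2 above CS 1.

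The gene lists below hold pathway and cell type genes, and only those members with a name in the study's lists could be found, so each list is covered in part and by genes already picked for a difference from controls in these libraries. Among the 275 named genes 135 (49.1%) had an unadjusted p under 0.05, 92 higher in CS (33.5%) and 43 lower (15.6%), and the median log2 difference was 0.16. The groups did not overlap in 201 of them (73.1%). List counts are to be read against these shares and not against those of all genes.

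**Figure D3:**
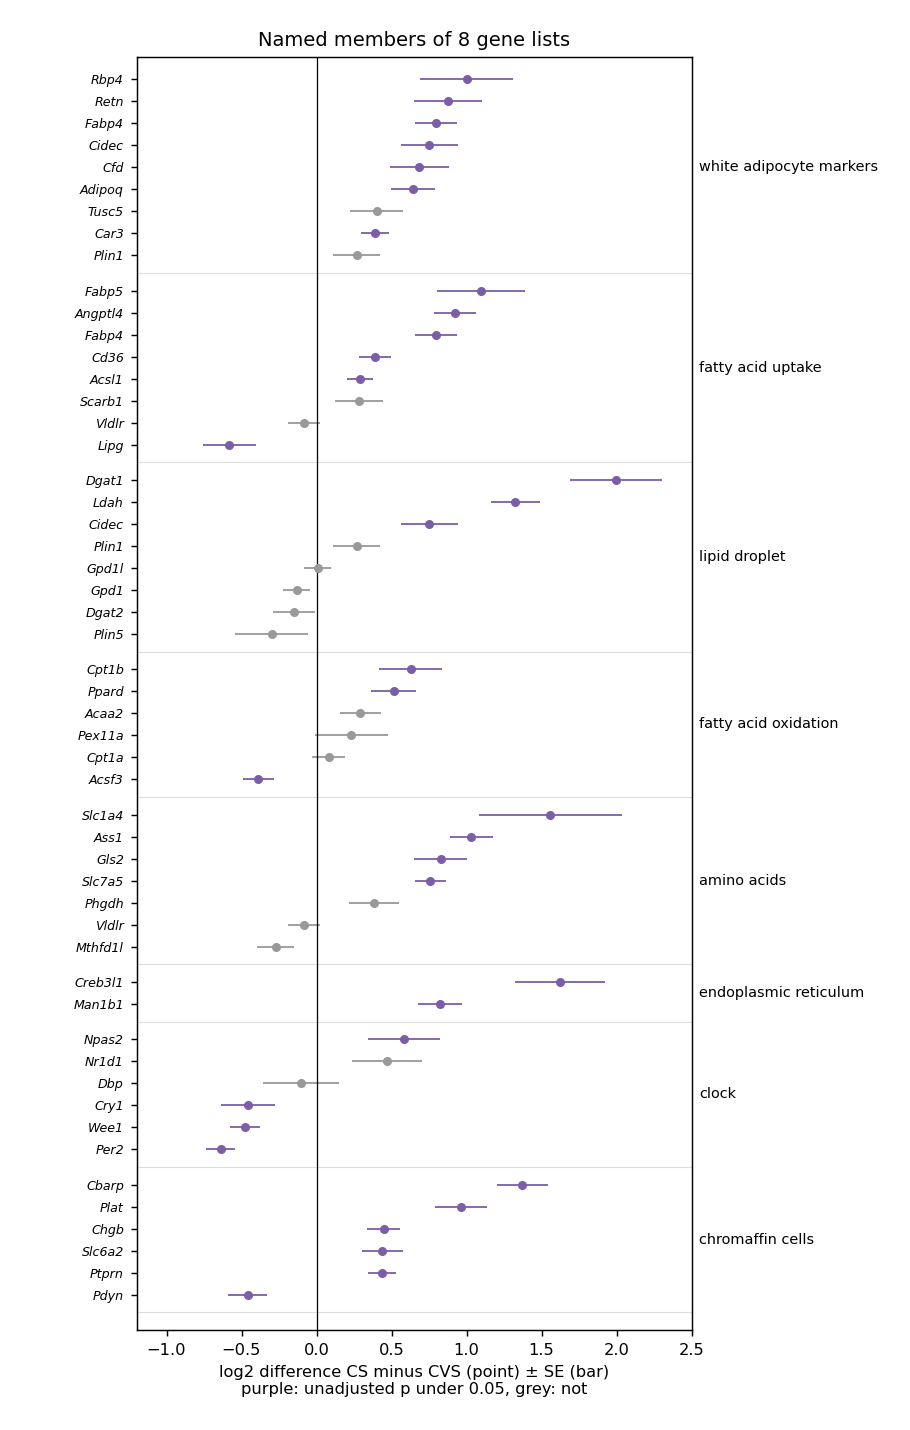
Log2 difference CS minus CVS (x axis) with its SE from edgeR's fit (bars) for each named member (y axis) of 8 gene lists. Purple marks an unadjusted p under 0.05 and grey the rest. All 9 white adipocyte markers lie to the right of 0, as do both endoplasmic reticulum genes, and the clock genes lie on both sides.

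Genes for amino acid supply and for the endoplasmic reticulum stood mostly higher in CS. Of 7 named members of the amino acid list, 4 were higher at an unadjusted p under 0.05 and 0 were lower in edgeR's test, with a median log2 difference of 0.76, and these counts were also 4 and 0 whichever library was left out. *Ass1*, argininosuccinate synthase of arginine synthesis, stood at 50.9 and 62.4 CPM in CVS, 105 and 127 in CS and 46.4, 62.3 and 46.98 in controls. Its difference of 1.03 ± 0.14 (log2) was alike in both pairs, 1.04 and 1.02. *Slc7a5*, the large neutral amino acid transporter LAT1, stood at 35.9 and 38.03 CPM in CVS and 59.2 and 65.8 in CS, while controls stood at 77.6, 87.6 and 64.7 CPM. For this gene CVS was the group outside the controls and CS lay near or inside their range, and the log2 difference was 0.76 ± 0.10. *Gls2*, a glutaminase, stood at 23.03 and 28.2 CPM in CVS and 38.5 and 52.3 in CS, both above the controls at 14.98, 18.7 and 19.6 CPM, a log2 difference of 0.83 ± 0.18. *Slc1a4*, the neutral amino acid transporter ASCT1, stood at 4.62 and 7.71 CPM in CVS and 9.79 and 26.2 in CS, a log2 difference of 1.56 ± 0.48, and most of that lay in CS library 2. *Phgdh*, of serine synthesis, gave 0.39 ± 0.17 (log2), with CS library 1 inside the control range and the other 3 libraries under it, and the other 2 members, of folate metabolism and lipoprotein uptake, gave differences between -0.27 and -0.081. *Eprs* was the only named gene among the tRNA synthetases, so the other synthetases were not examined.

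*Creb3l1* (ENSRNOG00000005413), a transcription factor anchored in the endoplasmic reticulum until stress releases it, stood at 17.6 and 14.9 CPM in CVS, 34.4 and 66.4 CPM in CS and 10.4, 10.02 and 9.64 CPM in controls. The 3 groups did not overlap, with controls lowest and CS highest, and the log2 difference between CS and CVS was 1.62 ± 0.30. It was 0.97 in the first pair and 2.15 in the second. *Man1b1*, which trims mannose from new glycoproteins, stood at 155 and 157 CPM in CVS and 236 and 315 CPM in CS against 147, 143 and 153 CPM in controls, a log2 difference of 0.82 ± 0.15. These were the 2 named members of the list for the endoplasmic reticulum, and DESeq2 called both.

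In fat metabolism, members of the list for fatty acid and lipoprotein uptake mostly stood higher in CS, while those of the lipid droplet list were divided. The uptake list also holds *Angptl4*, which inhibits a lipase, and *Fabp4*, which is counted again with the white fat markers below. Of 8 named lipid droplet genes, 3 were higher at an unadjusted p under 0.05 and 0 lower in edgeR's test (3 to 4 of the 8 with a library left out), near the share among all named genes, and their median log2 difference was 0.14 against 0.16. These were *Dgat1* and *Ldah*, both chosen by the study to tell CS from CVS, and *Cidec*, which drives fusion of lipid droplets. *Cidec* and *Plin1*, another member of this list, are counted again with the white fat markers below. *Cidec* stood at 6.54 and 6.65 CPM in CVS, 9.57 and 12.7 in CS and 4.09, 3.33 and 5.53 in controls. The other 5 had log2 differences between -0.30 and 0.27, and 3 of them were under 0. Of 8 genes for fatty acid and lipoprotein uptake, 5 were higher and 1 lower at that p (4 in all without CVS library 2 or CS library 1), with a median of 0.34. *Angptl4*, an inhibitor of lipoprotein lipase, stood at 30.01 and 25.1 CPM in CVS and 47.7 and 57.4 CPM in CS, on either side of the controls at 35.5, 33.3 and 41.7 CPM. Its log2 difference was 0.93 ± 0.14. *Fabp5*, a fatty acid carrier, stood at 3.68 and 4.13 CPM in CVS and 6.11 and 10.6 CPM in CS against 3.71, 4.56 and 4.76 CPM in controls, a log2 difference of 1.10 ± 0.29.

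*Cd36*, which takes up long-chain fatty acids, stood at 27.97 and 25.7 CPM in CVS and 34.6 and 35.9 CPM in CS, both under the controls at 63.00, 71.5 and 84.1 CPM. The gap between the 2 stress groups was 0.39 ± 0.11 (log2), smaller than their common distance from the controls. *Acsl1*, which couples fatty acids to coenzyme A, gave a log2 difference of 0.29 ± 0.088 from levels of 173 and 169 CPM in CVS and 209 and 209 CPM in CS. *Lipg*, endothelial lipase, went the other way, with 13.3 and 10.5 CPM in CVS, 7.55 and 8.43 CPM in CS and 20.2, 14.8 and 12.4 CPM in controls, a log2 difference of -0.58 ± 0.18. *Thrsp*, a lipogenic nuclear protein, was the 1 of 3 fatty acid synthesis genes under an unadjusted p of 0.05 (0 without CVS library 2 or CS library 2, and 2 without CVS library 1), at 22.9 and 16.1 CPM in CVS and 24.9 and 39.97 CPM in CS against 4.36, 4.52 and 7.67 CPM in controls. CS library 1 and CVS library 1 of *Thrsp* were close, with a log2 gap of 0.12, while the second pair gave 1.31.

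Of 6 named members of the list for fatty acid oxidation, 2 were higher in CS and 1 lower at an unadjusted p under 0.05 in edgeR's test. With the library code number as a term in a fit of all 7 libraries, 5 were under that p. The median log2 difference was 0.26. *Cpt1b*, the muscle form of the enzyme that admits fatty acids to mitochondria, stood at 13.04 and 20.5 CPM in CVS, 26.3 and 25.1 CPM in CS and 27.3, 29.6 and 28.2 CPM in controls. Both stress groups lay under the controls, CVS by more, and the log2 difference between them was 0.63 ± 0.21. *Ppard*, a nuclear receptor for fatty acids, showed another pattern, with 82.2 and 79.9 CPM in CVS and 98.9 and 133 CPM in CS above controls at 74.4, 76.2 and 74.6 CPM, a log2 difference of 0.52 ± 0.15. The 1 lower member was *Acsf3*, a mitochondrial acyl-CoA synthetase and not itself an enzyme of the oxidation steps. It stood at 145 and 147 CPM in CVS and 105 and 119 CPM in CS. Both CVS libraries were above the controls, at 109, 121 and 117 CPM.

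Markers of white fat cells stood higher in CS than in CVS and mostly higher in CVS than in controls. Of 9 named markers, 7 were higher at an unadjusted p under 0.05 and 0 lower in edgeR's test (6 to 7 with a library left out), with a median log2 difference of 0.69, and the groups did not overlap in any of the 9. Their summed level was 81.4, 65.9 and 104 CPM in Control 1, 2 and 3, 135 to 144 CPM in CVS and 194 to 212 CPM in CS. Control 3, the highest control, shares its code number with CS 2. No marker was at 0 in any library. *Adipoq*, adiponectin, stood at 16.7 and 13.3 CPM in CVS, 23.4 and 23.96 CPM in CS and 9.17, 8.17 and 11.4 CPM in controls, a log2 difference of 0.65 ± 0.15. *Retn*, resistin, stood at 2.797 and 3.12, 4.73 and 6.12 and 1.69, 1.77 and 2.06 CPM in those groups, a log2 difference of 0.87 ± 0.23. *Cfd*, adipsin, stood at 6.66 and 8.82, 11.3 and 13.5 and 8.16, 5.83 and 7.42 CPM. In *Cfd* the CVS libraries lay on the level of the controls, unlike in *Adipoq* and *Retn*.

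*Fabp4*, the fatty acid carrier of fat cells, stood at 19.9 and 18.3 CPM in CVS, 29.7 and 36.98 CPM in CS and 10.2, 9.41 and 16.5 CPM in controls, and DESeq2 called it. *Car3*, a carbonic anhydrase abundant in fat, stood at 73.5 and 67.95, 92.97 and 92.7 and 36.1, 28.4 and 45.9 CPM. *Rbp4*, a retinol carrier made in fat and liver, gave a log2 difference of 1.00 ± 0.31, with the second pair at 1.5 and the first at 0.43. *Plin1* and *Tusc5* gave 0.27 and 0.40, with an unadjusted p of 0.133 and 0.0574 in edgeR's fit across all genes. Across the alternative fits the log2 difference ran from 0.16 to 0.45 for *Car3* and from 0.024 to 0.35 for *Plin1*. Every white fat marker stayed higher in CS in those fits. *Fabp4*, *Cidec* and *Plin1* are both markers here and members of the lipid lists above, so those counts are not separate. Some of the lipid genes above stood higher in CS as these markers did, while *Lipg*, *Acsf3* and some lipid droplet genes stood lower. *Cd36* was higher in CS than in CVS but under the controls in both, unlike the markers. Fat cells also express several of the lipid genes, and the part of fat cells in those results was not tested. In *Dgat1* and *Ldah*, as in the fat markers *Cfd* and *Rbp4*, the CVS libraries overlapped the controls, while in the other 7 markers they lay above them. The 3 named genes of the brown fat and muscle list, *Cox8b*, *Cpt1b* and *Myom2*, had log2 differences of 0.81, 0.63 and 0.27. All 3 had an unadjusted p under 0.05, against 0 without CVS library 1, 1 without either CS library and 2 without CVS library 2, and their summed level was 137 to 154 CPM in controls, 84.7 to 92.9 CPM in CVS and 115 to 130 CPM in CS.

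The clock genes stood on both sides of the comparison. Of 6 named members, 1 was higher and 3 lower in CS at an unadjusted p under 0.05 in edgeR's test, with a median log2 difference of -0.28. Leaving out a library gave 3 to 6 of the 6, and 6 without CVS library 2. *Per2*, a repressor of the clock, stood at 135 and 120.5 CPM in CVS, 81.9 and 82.05 CPM in CS and 81.01, 84.9 and 74.3 CPM in controls. Both CS libraries lay inside the control range and both CVS libraries far above it, and the log2 difference was -0.64 ± 0.099, the 1 clock gene that DESeq2 called. *Wee1*, a cell cycle kinase under clock control, had the same shape, with 45.7 and 48.01 CPM in CVS, 35.1 and 32.3 CPM in CS and 32.8, 34.7 and 35.02 CPM in controls, a log2 difference of -0.48 ± 0.10. *Cry1*, the partner of PER proteins, stood at 39.9 and 31.2 CPM in CVS and 22.4 and 29.6 CPM in CS against 16.2, 18.8 and 17.7 CPM in controls. CVS library 2 and CS library 2 of *Cry1* were nearly level, and the log2 difference of -0.46 ± 0.18 came from the first pair, at -0.84 against -0.073 in the second.

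*Npas2*, an activator of the clock, was under the controls in both stress groups, with 4.93 and 7.15 CPM in CVS, 7.81 and 10.2 CPM in CS and 14.00, 14.8 and 13.4 CPM in controls, a log2 difference of 0.58 ± 0.24. *Nr1d1*, the repressor REV-ERB alpha, stood at 67.6 and 117 CPM in CVS, 129 and 127 CPM in CS and 161, 167 and 169 CPM in controls. The 2 CVS libraries of *Nr1d1* were far apart and those of CS almost equal, and the log2 difference of 0.47 ± 0.23 had an unadjusted p of 0.0877 in edgeR's fit across all genes. *Dbp*, a factor of clock output, stood at 256 and 468 CPM in CVS and 342 and 332 CPM in CS, with the CS libraries between the 2 CVS libraries and a log2 difference of -0.10 ± 0.25. Its direction turned to higher in CS, at 0.39, without CVS library 2. CVS library 1 was the lowest of all 7 libraries for *Npas2*, *Nr1d1* and *Dbp* and the highest for *Per2* and *Cry1*. The study states that all animals were killed in one window in the middle of the light phase and that lighting was last altered days before.

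**Figure D4:**
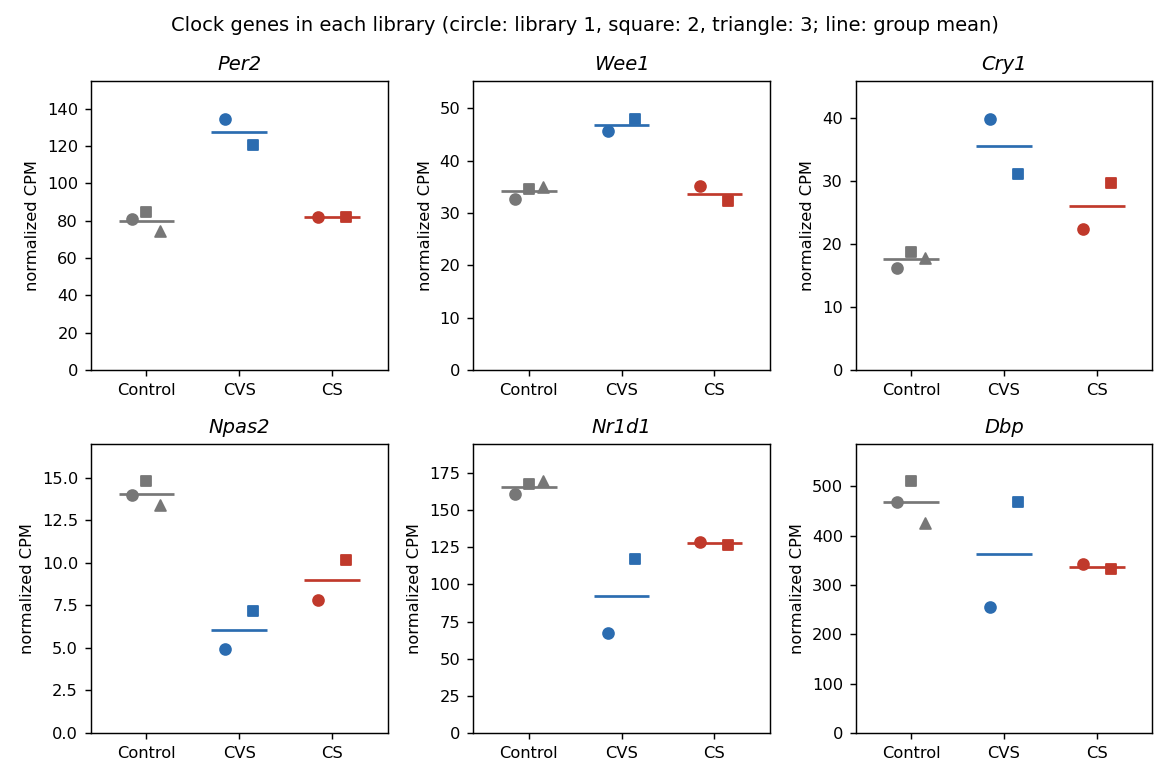
Normalized CPM (y axis, from 0) of 6 clock genes in each control, CVS and CS library (x axis), with circles for library 1, squares for 2, triangles for 3 and lines for group means. Per2 and Wee1 are at control level in CS and above it in CVS, and Npas2 and Nr1d1 are under the controls in both stress groups and lowest in CVS library 1.

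Genes of the chromaffin cells stood higher in CS for 5 of 6 named members and lower for 1, all at an unadjusted p under 0.05 in edgeR's test (4 in all without CVS library 2), with a median log2 difference of 0.44. The 5 include *Cbarp* and *Plat*, which the study chose from these same libraries to tell CS from CVS. Their direction adds no independent evidence to the count or the median. *Chgb*, a core protein of secretory granules, stood at 1194 and 1049 CPM in CVS, 1564 and 1499 CPM in CS and 1094, 1164 and 1235 CPM in controls. Both CS libraries lay above the controls, CVS library 1 inside their range and CVS library 2 under it, and the log2 difference was 0.45 ± 0.11. *Ptprn*, a membrane protein of the same granules, stood at 35.4 and 35.2 CPM in CVS, 47.8 and 47.7 CPM in CS and 29.3, 29.7 and 30.4 CPM in controls, with a log2 difference of 0.43 ± 0.093 and close replicates. *Slc6a2*, the noradrenaline transporter, was under the controls in both groups, at 18.4 and 21.9 CPM in CVS and 29.05 and 25.4 CPM in CS against 35.4, 37.5 and 37.9 CPM. *Pdyn*, the precursor of dynorphin, was lower in CS, at 46.5 and 39.8 CPM, within the control values of 40.3, 38.8 and 47.2 CPM, and stood at 54.3 and 64.3 CPM in CVS. The enzymes of catecholamine synthesis had no name here and were not examined.

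For steroid synthesis, 1 of 6 named members was higher and 1 lower in CS at an unadjusted p under 0.05 (1 in all without either CVS library or CS library 1, and 4 with no filter on low counts), and the median log2 difference was 0.12. *Nr0b1*, the repressor DAX-1 of steroid genes, stood at 19.98 and 18.3 CPM in CVS and 23.03 and 26.5 CPM in CS, both under the controls at 29.1, 35.04 and 31.2 CPM. *Ephx1*, an epoxide hydrolase, stood at 81.7 and 74.1 CPM in CVS and 61.3 and 63.6 CPM in CS, above controls at 58.3, 57.1 and 56.3 CPM. *Cyp11b2*, with the levels given above, overlapped between CS and CVS, and both groups were above the controls at 1679.6, 1925 and 2099 CPM. Cholesterol synthesis and red blood cell genes had 0 named members.

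Markers of glia and nerve stood on both sides, with 1 of 7 named members higher and 2 lower in CS at an unadjusted p under 0.05 and a summed level of 263 to 272 CPM in controls, 233 to 259 CPM in CVS and 226 to 249.8 CPM in CS. The balance depended on the test, since DESeq2 put 3 higher and 2 lower at that p and the edgeR fit of all 7 libraries 4 higher and 2 lower, and leaving out a library gave 2 to 4 in all. The CS and CVS libraries did not overlap in any of the 7, and CS was higher in 5. *S100b*, a calcium-binding protein of glia, stood at 26.8 and 29.5 CPM in CVS, 19.8 and 17.9 CPM in CS and 17.7, 14.6 and 17.6 CPM in controls. *Map2*, a microtubule protein of neurons, stood at 87.3 and 117 CPM in CVS, 69.1 and 75.1 CPM in CS and 53.5, 71.1 and 64.9 CPM in controls. Both genes were above the controls in CVS, with log2 differences between CS and CVS of -0.58 ± 0.12 and -0.50 ± 0.15. *Bcan*, brevican of the neural matrix, went the other way at 0.66 ± 0.19. Of 4 smooth muscle and vascular genes only *Tagln*, a smooth muscle actin-binding protein, was under that p (2 genes in DESeq2 and without CVS library 2 or CS library 1), at 89.9 and 85.03 CPM in CVS, 114 and 135 CPM in CS and 134, 113 and 138 CPM in controls, while the summed level of the 4 was 674 to 831 CPM in CVS and 807 to 837 CPM in CS.

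Of 5 named immune genes, 1 was higher and 2 lower in CS at an unadjusted p under 0.05 (2 in all without any library but CVS 2), with a median log2 difference of -0.20 and a summed level of 443 to 456 CPM in CVS and 372 to 405 CPM in CS, against 469 to 494 CPM in controls. *Cxcl10*, a chemokine induced by interferon, had the lowest log2 difference of the named genes. It stood at 13.3 and 22.5 CPM in CVS, 9.76 and 7.805 CPM in CS and 19.9, 16.7 and 14.8 CPM in controls, and its difference of -1.02 ± 0.27 ran from -0.45 in the first pair to -1.53 in the second. *Mrc1*, the mannose receptor of macrophages, stood at 85.3 and 75.3 CPM in CVS and 65.8 and 64.9 CPM in CS, above controls at 54.02, 60.8 and 58.00 CPM. *Il33*, an alarm cytokine, stood at 11.3 and 11.1 CPM in CVS and 18.3 and 16.2 CPM in CS, with CVS under the controls, at 21.1, 18.2 and 19.6 CPM, and CS at their lower edge. *Klf15*, a target of the glucocorticoid receptor, stood at 21.8 and 25.2 CPM in CVS and 17.5 and 17.9 CPM in CS against 25.5, 28.3 and 24.6 CPM in controls. Of the 3 named glucocorticoid-induced genes *Angptl4* was higher, *Klf15* lower and the third not under that p, and 1 of the 3 was under it without CVS library 2 or CS library 1. *Egr1*, the only named immediate early gene, stood at 10.3 and 9.37 CPM in CVS and 13.6 and 21.3 CPM in CS against 9.49, 8.71 and 11.2 CPM in controls.

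Genes for ribosome synthesis and RNA binding gave small differences, and most of these genes had the larger one in the second pair. The log2 differences in the first and second pair were 0.27 and 0.75 for *Rrp12*. *Hnrnpd*, at 0.49 and 0.37, and *Srsf5*, at 0.31 and 0.14, went the other way. All 4 named nucleolar genes were higher in CS at an unadjusted p under 0.05, with a median log2 difference of 0.39, and 3 of the 4 or fewer were so with a library left out, 2 without CS library 2 and 0 without CVS library 2. *Bop1* and *Rrp12*, both needed to mature ribosomal RNA, stood at 78.7 and 74.4 and 47.9 and 35.6 CPM in CVS and at 95.8 and 103 and 57.9 and 59.9 CPM in CS. *Rrp1* and *Cd3eap*, the latter a subunit of RNA polymerase I, gave log2 differences of 0.40 ± 0.11 and 0.35 ± 0.14. Of 4 genes for splicing and RNA binding 3 were higher at that p (1 without CVS library 2, and 2 without CVS library 1 or CS library 2), with a median of 0.41. *Hnrnpd*, *Ddx46* and *Ranbp2*, which act on mRNA stability, splicing and nuclear export, gave 0.43 ± 0.093, 0.39 ± 0.10 and 0.42 ± 0.13 (log2).

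Among the other named genes with the largest differences upward, the 2 CS libraries always stood above both CVS libraries, since that was a condition of the rule that named them. *Lmbr1*, a membrane protein gene, stood at 16.3 and 14.7 CPM in CVS, 30.8 and 34.2 CPM in CS and 14.1, 16.9 and 15.9 CPM in controls. *Pde10a*, which breaks down cyclic nucleotides, stood at 24.7 and 21.7 CPM in CVS, 45.7 and 55.1 CPM in CS and 20.4, 19.5 and 32.9 CPM in controls. In both genes CVS was at the level of controls and the log2 differences were 1.06 ± 0.12 and 1.11 ± 0.13. *Emd*, emerin of the inner nuclear membrane, stood at 18.7 and 21.8 CPM in CVS and 32.7 and 57.8 CPM in CS, a log2 difference of 1.16 ± 0.26. *Map1lc3a*, a protein of autophagosomes, stood at 51.1 and 74.7 CPM in CVS and 101 and 182 CPM in CS, and *RGD1562747* at 27.7 and 32.8 and 54.5 and 124 CPM. In these 3 genes the second CS library was far above the first, and DESeq2 called *Emd* but not the other 2. *Rnf225*, a RING finger gene, was low in every library, at 1.63 and 1.56 CPM in CVS and 4.35 and 4.94 CPM in CS. *Aloxe3*, a lipoxygenase, stood at 6.28 and 6.297 CPM in CVS and 10.1 and 13.7 CPM in CS against 5.22, 7.02 and 5.66 CPM in controls.

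*Slc9a3*, the sodium-proton exchanger NHE3, and *Scgb1c1*, a secretoglobin, were far under the controls in CVS. *Slc9a3* stood at 1.92 and 3.02 CPM in CVS, 5.47 and 3.45 CPM in CS and 22.01, 24.98 and 19.9 CPM in controls, so the log2 difference of 0.88 ± 0.33 between the stress groups is small beside the distance of both from the controls. *Scgb1c1* stood at 10.1 and 10.3 CPM in CVS and 14.2 and 23.96 CPM in CS, the second of which lay above the controls at 19.2, 22.6 and 21.8 CPM. *LOC500035* stood at 278 and 294 CPM in CVS and 472 and 466 CPM in CS, both under controls that ranged widely, from 532 to 1024 CPM, and its log2 difference was 0.71 ± 0.09. *Fxyd6*, a regulator of the sodium pump, had close replicates, with 101 and 102 CPM in CVS, 143 and 146 CPM in CS and 150.3, 152 and 166 CPM in controls, and CS fell just short of the control range. DESeq2 also called *Arhgap32*, *Adamts9*, *Hps4*, *Gmpr* and *Slc25a30*, with log2 differences of 0.68 ± 0.14, 0.51 ± 0.10, 0.84 ± 0.20, 0.72 ± 0.16 and 0.76 ± 0.20. *Slc25a30*, a mitochondrial carrier, was the most abundant of them, at 329 and 401 CPM in CVS and 496 and 739 CPM in CS.

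Named genes that were lower in CS had smaller differences. *Hmox1*, the heme oxygenase of oxidative stress, stood at 28.2 and 38.7 CPM in CVS, 19.9 and 18.7 CPM in CS and 28.9, 26.9 and 27.4 CPM in controls. *Hcrtr2*, the orexin receptor 2, stood at 39.8 and 46.4 CPM in CVS, 29.8 and 22.4 CPM in CS and 46.4, 46.95 and 45.6 CPM in controls. In both genes both CS libraries lay under the controls, and the log2 differences were -0.79 ± 0.17 and -0.72 ± 0.16. *Cys1*, cystin of the primary cilium, stood at 22.5 and 21.5 CPM in CVS, 13.98 and 11.7 CPM in CS and 14.1, 13.8 and 11.8 CPM in controls, with both CVS libraries above the controls, at a log2 difference of -0.77 ± 0.14. DESeq2 called *Hmox1*, *Hcrtr2*, *Cys1*, *Per2* and *Cxcl10*. *Sned1*, *Idh1*, *Uba6* and *Camkk1*, with log2 differences of -0.61 ± 0.14, -0.50 ± 0.13, -0.47 ± 0.11 and -0.48 ± 0.17, also had both CS libraries under all 3 controls. *Idh1*, an enzyme that supplies NADPH, was the most abundant of these, at 406 and 515 CPM in CVS and 318 and 335 CPM in CS.

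*Trpm4*, a cation channel, stood at 9.71 and 8.01 CPM in CVS, 5.89 and 5.29 CPM in CS and 5.55, 5.09 and 4.67 CPM in controls. *Pzp*, a protease inhibitor, stood at 4.43 and 4.58, 2.82 and 2.39 and 1.898, 2.22 and 2.06 CPM, and *Kcnt1*, a sodium-activated potassium channel, at 14.5 and 13.1, 8.99 and 10.6 and 7.62, 8.05 and 7.07 CPM. In these 3 genes both CVS libraries lay above every control, and CS lay between CVS and the controls or among the controls. *Hebp1*, a heme-binding protein, gave a log2 difference of -0.58 ± 0.17, and *Plxnc1*, a semaphorin receptor, gave -0.94 ± 0.28, most of it from CVS library 2 at 10.9 and 18.99 CPM in CVS libraries 1 and 2.

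**Figure D5:**
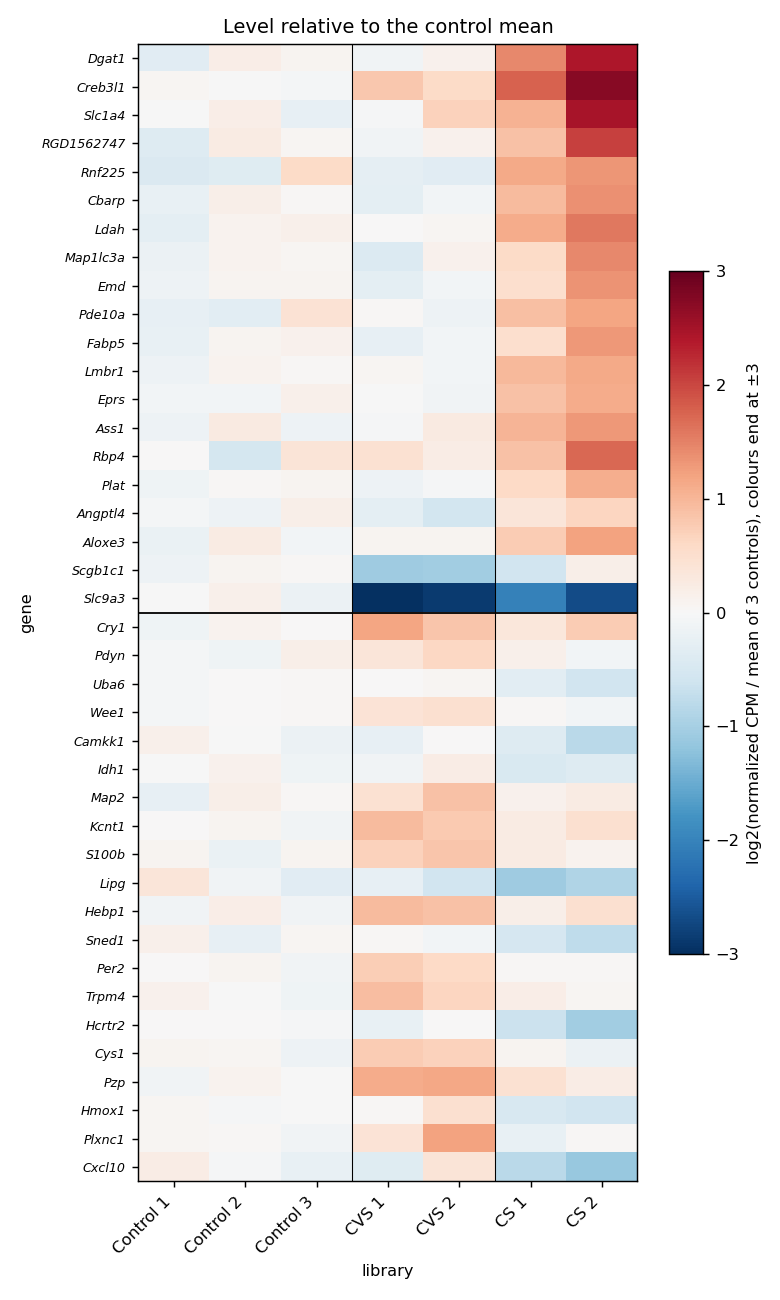
Log2 ratio of normalized CPM to the mean of the 3 controls (colour, ±3 at the ends) for the 20 named genes with the largest differences in each direction (rows, above the line higher in CS) in all 7 libraries (columns). Most genes above the line are near the control level in CVS and above it in CS, and several below the line, Per2 and Trpm4 among them, are above it in CVS and near it in CS.

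Set against the controls, CS alone was outside the control range in more of the genes that separated CS from CVS than CVS alone. Of the 1031 genes counted at an unadjusted p under 0.05, 397 (38.5%) had both CS libraries outside the control range with CVS overlapping it, 243 (23.6%) the reverse, 66 (6.4%) had both groups outside on the same side and 165 (16.0%) on opposite sides. Over all 14115 genes these shares were 15.3%, 12.9%, 7.47% and 1.99%. Of the 48 that DESeq2 called, 25 had CS alone outside, 7 CVS alone, 8 both on the same side and 7 both on opposite sides. In the remaining 1 both groups overlapped the controls. Among the 135 named genes at that p the counts were 58, 20, 56 and 1, and *Angptl4* was the 1. Named genes were listed by the study for a difference from controls, so their split follows from that choice in part. Of 151 names listed for CS only, 64 were higher and 21 lower in CS than in CVS at that p. Of 80 listed for CVS only it was 20 and 21, and of 44 listed for both 8 and 1.

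Of DESeq2's 48 calls 31 had a name and 17 had none, and of the 1031 genes at an unadjusted p under 0.05 in edgeR 135 had one. By the smallest unadjusted p in edgeR, the first unnamed genes in each direction were these. ENSRNOG00000045840 stood at 6.599 and 5.59 CPM in CVS, 12.6 and 11.8 CPM in CS and 10.1, 7.72 and 6.34 CPM in controls, and ENSRNOG00000014414 at 191 and 159, 279 and 330.1 and 102, 143 and 197 CPM. Their log2 differences were 0.99 ± 0.17 and 0.79 ± 0.13. ENSRNOG00000023492 stood at 9.58 and 9.77 CPM in CVS, 5.02 and 4.71 CPM in CS and 8.75, 6.12 and 6.13 CPM in controls, and ENSRNOG00000004542 at 34.00 and 34.8, 23.96 and 23.7 and 30.9, 31.1 and 28.2 CPM. In both of the latter CVS lay above and CS under all 3 controls, at log2 differences of -0.99 ± 0.16 and -0.53 ± 0.10.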

How the data were processed

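RNA was measured in 7 pooled adrenal libraries, 3 control, 2 CVS and 2 CS, grouped by their titles. The authors deposited raw counts per Ensembl gene, not normalized, which they made from poly(A) reads mapped to Rnor_6.0 with Rsubread and counted with featureCounts. Versions, annotation release and strand setting are not given in the sources used here, so the values of a gene may hold reads of an antisense neighbour or of a near-identical copy. Totals ran from 20095746 to 32242123 counts per library.

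Genes with at least 10 counts in all 4 stressed libraries were tested with edgeR 4.0.16 (limma 3.58.1, R 4.3.3) on those 4 libraries, with TMM factors, estimateDisp, glmQLFit and glmQLFTest at their defaults and Benjamini-Hochberg adjustment over 14115 genes. A call needed an adjusted p under 0.1. DESeq2 1.42.0 was the alternative test. With 2 pools a group, p-values measure only the spread between pools. Errors after ± are SE of log2 differences. Other values came from Python 3.11.15 with pandas 2.3.3 and numpy 2.4.6, and plots from matplotlib 3.10.9.

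Genes were named only through the study's lists of genes that differed from controls (276 names, 1 of them not tested, and 4 misread names left out). Named in the text were the study's 5 genes, the 20 in each direction with the largest difference at an unadjusted p under 0.05, a mean of at least 1 normalized CPM and no overlap between groups, those that DESeq2 called, members of 22 gene lists, and those with CS and CVS on opposite sides of the controls. From unnamed genes, 2 per direction were taken by smallest p. The genes and lists were chosen with earlier results of these data known. Lists were described by counts and medians only. A group was outside the controls when both of its libraries lay beyond all 3 on the same side. Other filters, normalizations, fits on all 7 libraries, library terms and the leaving out of each library were tried. A few named genes are not reported here. The quantitative PCR, weight and behavior measures were not used here.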

Additional observations from a re-analysis of the deposited data

Results flagged for a closer look

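In 3 of the genes named, CS and CVS lay on opposite sides of all 3 controls, with every CS library on one side and every CVS library on the other. The opposite directions against the controls were not tested as such, and the log2 differences between CS and CVS come from edgeR's quasi-likelihood fit across all genes. *Angptl4* had both CS libraries above and both CVS libraries under the controls, at a log2 difference of 0.93. ENSRNOG00000023492 had CS under and CVS above the controls, at -0.99, and ENSRNOG00000004542 did so at -0.53. Over all 14115 genes tested, 281 (1.99%) had this arrangement.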

How the results depend on the processing

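Of the 92 genes examined here, 91 kept the direction of their CS against CVS difference in all 16 alternatives. The exception was *Dbp*, at -0.10 as reported, -0.48 to 0.39 with a library left out and 0.19 with the library code number as a term in the fit of all 7 libraries.

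The count of genes with an adjusted p under 0.1 was 0 in edgeR's test as reported, and also 0 with a robust fit, with the legacy calculation off, after scaling by DESeq2's size factors, with filterByExpr, with the filter over all 7 libraries, all 7 libraries in 1 fit, or a threshold of 0.05. It was 48 with DESeq2's Wald test without a prior, 45 with one, and 391 without a filter on low counts. The library code number as a term in the fit of all 7 libraries gave 304. Leaving out 1 library gave 0 to 72. The count at an unadjusted p under 0.05, 1031 as reported, was 1709 without a filter and 2083 with the code number, and 472 to 1565 with a library left out, where a lone library is assumed to vary like the other group. The cause was not tested. All of DESeq2's 48 genes were tested in each fit except 1 under the filter over all 7 libraries, and each kept its direction.

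Libraries of CS and CVS share the numbers 1 and 2 in their titles, and the deviations of CS 1 and CVS 1 from their group means correlated at 0.34 across genes, which in groups of 2 is the same value for the second pair. Nothing in the labels says that a number marks a shared batch, and the code numbers differ in the second pair, so the libraries were taken to share only a number. With the number as a replicate block, 942 genes had an adjusted p under 0.1 and 2598 an unadjusted p under 0.05 in the 4 libraries, and 508 and 2641 in the fit of all 7. CVS library 2 is the shallowest, and genes near the minimum of 10 counts have the largest counting error.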
